A study of Mus musculus with 2 samples.

Results

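The genes described here mark the capillary endothelium of the mouse lung and its specialised alveolar cell, the aerocyte. They are Car4, Emp2, Tbx2, Tbx3, Apln, Aplnr, Fibin, Tmem100, Hpgd and Scn7a. Every probe set whose single gene symbol in the platform annotation was one of these names was taken, which gave 22 probe sets for 10 genes, out of 34945 probe sets and 18193 genes with 1 symbol. RNA came from vascular cells sorted by flow from the right lung lobes of C57BL/6J mice whose left lobe had been resected (pneumonectomy), and it was hybridised as biotin-labelled cRNA to 1-colour Affymetrix expression arrays. The comparison is between old mice and young mice, with 1 array each. All mice of both ages had undergone the operation. Not given in the sources used here are the ages in numbers, how long after surgery the lungs were taken, the sorting markers and how many mice each array stands for. Unoperated lungs were not analysed here. With 1 array per age no test was possible and no difference has a replicate check.

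The alveolar capillary bed of the mouse lung is built from a pair of endothelial cell states. Aerocytes are large, thin cells placed where gas crosses to the air space, and general capillary cells are the smaller cells of the same network that can divide and replace their neighbours. Aerocytes are known for the peptide apelin, and general capillary cells for the apelin receptor, so that ligand and receptor lie in adjoining cells.

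Values are MAS5 signal units, rescaled to a median log2 ratio of 0 over the probe sets that passed the floor at both ages. The floor, below which values were treated as having no order, was 73.7 units. A gene was read from the brightest of its probe sets (mean log2 signal over both arrays) and called higher at one age at 2-fold or more. Where 1 array alone passed the floor, the floor stood in for the other, and the fold, written as at least, is a minimum. Log2 ratios are old minus young, and ranges over the probe sets of a gene include such lower bounds. The general endothelial genes were well represented on both arrays, with 15 of 15 listed genes above the floor in old cells and 15 of 15 in young cells.

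The identity genes did not behave as a unit. Hpgd, Tbx2 and Emp2 were higher in old cells, Apln was higher in young cells, Aplnr, Tmem100 and Scn7a reached the floor at 1 age with lower bounds under 2-fold, and Car4, Tbx3 and Fibin were below the floor at both ages. Of the 10 genes 3 were below the floor at both ages, as were 33.5% of all genes. Of the 7 measured, 3 were called on the old side and 1 on the young side. Over all 12105 genes that passed the floor at 1 age or both, 16.0% were called on the old side and 11.3% on the young side. Of the 7 identity genes above the floor anywhere, 2 were above it at both ages, 3 in old cells only and 2 in young cells only. Those 5 genes passed through the age at which they were high and could only differ in that direction, so their count and median support no direction. The median log2 ratio of the 7 genes was 0.06, against 0.03 over all measured genes. In a sorted population, fewer cells of a type and less RNA per cell cannot be told apart.

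At the level of probe sets, 13 of 22 (59.1%) were below the floor at both ages, where 38.1% of all probe sets with 1 symbol were. In old cells 6 of the 22 were above the floor, against 5 in young cells. By the 2-fold rule 4 of the 9 measured probe sets were higher in old cells (14.2% of all measured probe sets) and 1 in young cells (10.6%). The plot of signals by probe set shows how much of the family lies left of the floor.

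**Figure D1:**
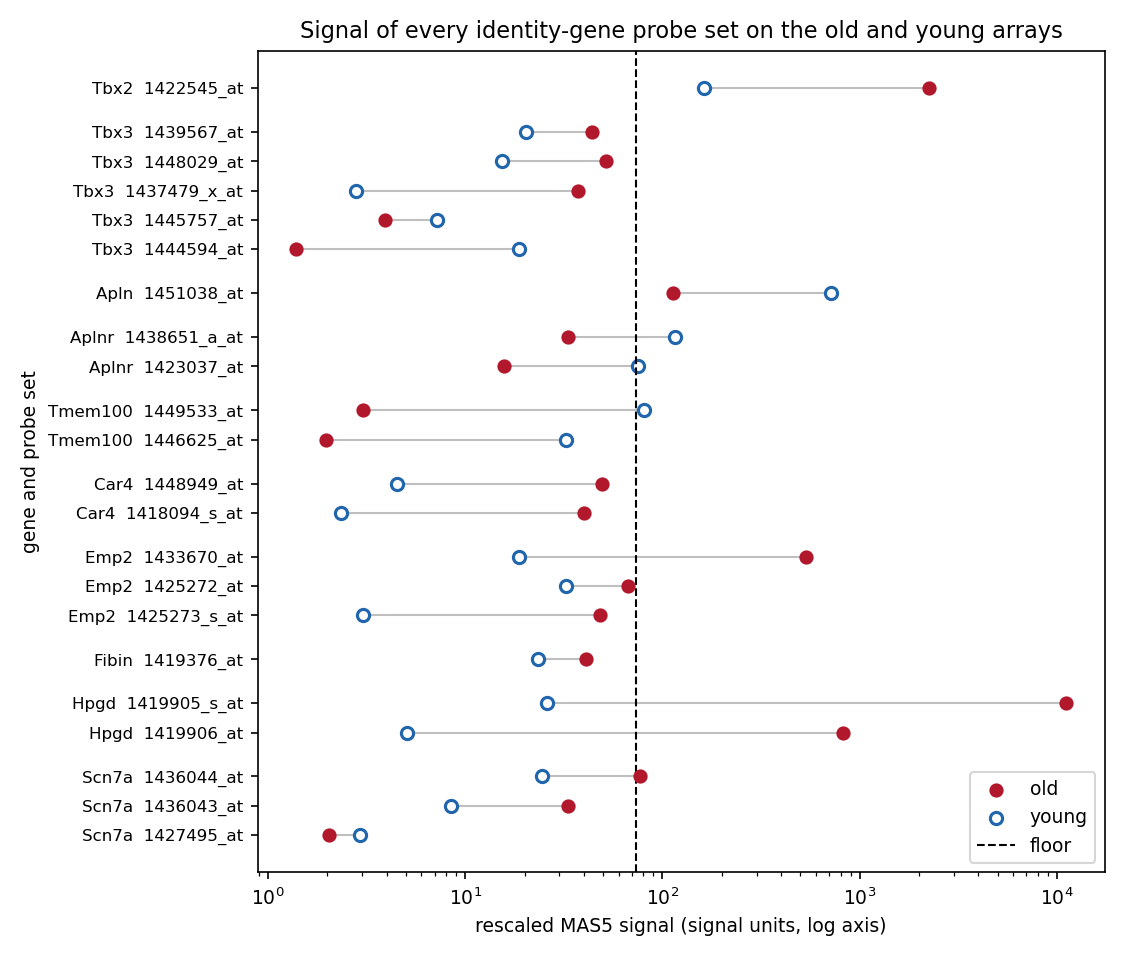
Rescaled MAS5 signal (signal units, log axis) of each of the 22 probe sets of the 10 identity genes, with the old array as filled red circles and the young array as open blue circles joined by a line, 1 array per age. The dashed line is the floor of 73.7 units. Hpgd, Emp2 and Tbx2 have old values far to the right of their young values, Apln has the opposite order, and 13 probe sets lie wholly left of the floor.

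Tbx2 and Tbx3 encode closely related T-box transcriptional repressors that act together in lung development. The Tbx2 probe set (1422545_at) had 2257 units in old cells, against 163 units in young cells. Both values were above the floor, and the difference was 13.9-fold (log2 ratio 3.79, and 2.21 with the floor at the 75th percentile). Of 10004 genes above the floor at both ages, 112 (1.12%) had a larger ratio toward the old side. Tbx3 was not measurable. Its 5 probe sets ran from 1.39 to 51.9 units in old cells and from 2.80 to 20.5 units in young cells, all below the floor, and they did not share an order between the ages. Tbx2 is also known from lung mesenchyme. Fibroblast markers were called on the old side for 6 of 8 measured genes, against 16.0% of all measured genes. Of the 8 markers, 2 were above the floor in young cells, and the rest could differ toward the old side alone. The summed signal of the fibroblast list was 23053 units in old cells, against 916 units in young cells. The part of those cells in the Tbx2 value was not tested.

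Among the other T-box genes, 13 of the 15 listed were named on the array and 10 of these were below the floor at both ages by the probe set read for the gene. Tbx20 and Eomes had another probe set above it in old cells only, with lower bounds of 2.55 and 0.13 in log2 ratio. Tbx18, known from epicardium and mural cells, was at least 3.88-fold higher in old cells. Tbx1, a regulator of pharyngeal and lymphatic vessel development, had 7.88 units in old cells, against 3047 units in young cells, and was at least 41.3-fold higher in young cells. Mga, a T-box and MAX-binding repressor, had a log2 ratio of -0.40. Tbx2 and Tbx1 thus stood on opposite sides, while 1 listed relative was within 2-fold. Tbx18 was below the higher floor, set at the 75th percentile, at both ages.

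Apln encodes apelin, a secreted peptide of aerocytes and of sprouting tip cells, and Aplnr its G protein-coupled receptor. The Apln probe set (1451038_at) had 113 units in old cells, against 714 units in young cells, both above the floor. It was 6.30-fold higher in young cells (log2 ratio -2.66). Of the 10004 genes above the floor at both ages, 137 (1.37%) had a larger ratio toward the young side. The old value of Apln was close to the floor, and with the floor at the 75th percentile its log2 ratio was -0.55.

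Aplnr had low signal in both of its probe sets. The brighter (1438651_a_at) had 33.1 units in old cells, against 116 units in young cells, and the other (1423037_at) had 15.8 units in old cells, against 75.4 units in young cells. Both were above the floor in young cells only, with lower bounds of 1.57-fold and 1.02-fold toward the young side, under the 2-fold rule. The Aplnr log2 ratio was -1.81 with the floor at the 25th percentile, and with an offset of 0.5 of the floor it was -1.13. Having passed the floor in young cells only, Aplnr could differ in that direction alone, and its call depended on how low values were treated.

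Peptidase and convertase genes listed with the apelin axis did not pass 2-fold. Of 9 listed, 7 were named on the array and 4 measured, and 0 were called in either direction. The convertase genes Furin and Pcsk7 had log2 ratios of 0.37 and 0.71, and the endothelin-converting enzyme genes Ece1 and Ece2 had 0.30 and -0.50. Apela, the second ligand of the receptor, and Mme, an apelin-degrading peptidase gene, were below the floor at both ages. Of 8 measured transducers of the receptor, 2 were higher in old cells and 0 in young cells, against 16.0% and 11.3% of all measured genes. The 2 were the beta-arrestin gene Arrb2 (log2 ratio 3.58), read from a probe set that can match several transcripts, and the G protein gene Gnai1 (at least 10.2-fold). Gnai1 passed the floor in old cells only and could differ in that direction alone. The Gnai1 probe sets ranged from 0.18 to 3.35 in log2 ratio, and its lower bound was 0.62 with the floor at the 75th percentile. Gnaq and Gna13 had -0.56 and 0.54, and the Gna13 probe sets ranged from -0.09 to 1.10.

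**Figure D2:**
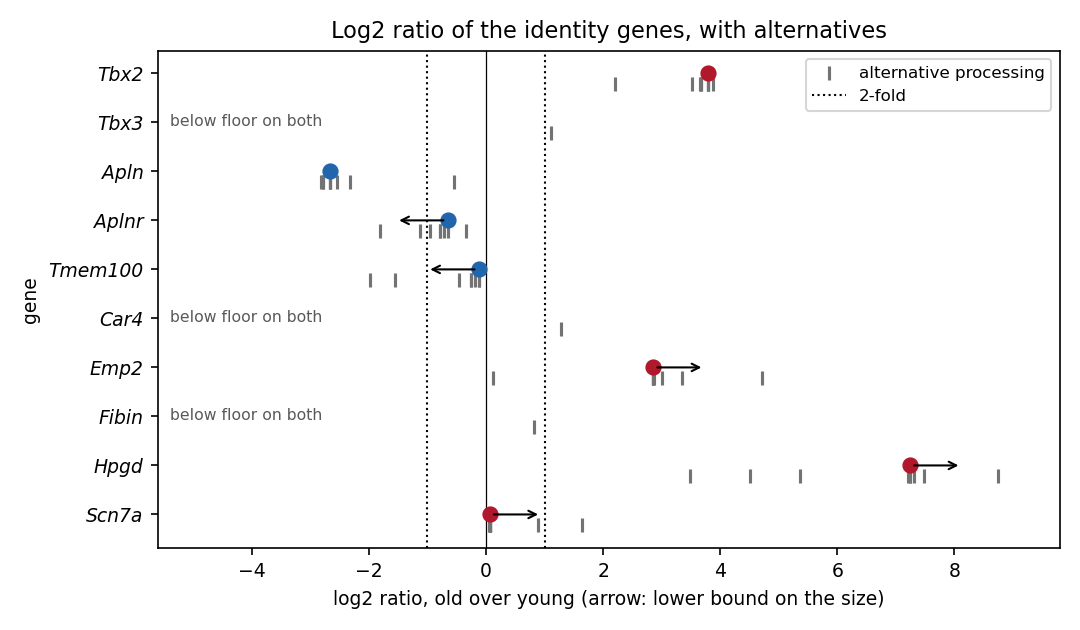
Log2 ratio of old over young for the 10 identity genes, with circles for the reported value (red on the old side, blue on the young side), an arrow where it is a lower bound, grey ticks for the alternatives in processing and dotted lines at 2-fold, 1 array per age. Tbx2 stays right of the 2-fold line throughout, Apln and Emp2 come within 2-fold when the floor is at the 75th percentile, and Tbx3, Car4 and Fibin have a value only with the floor at the 25th percentile.

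Car4, Emp2 and Tmem100 encode membrane proteins. Car4 is the carbonic anhydrase held on the luminal face of the capillary, where it speeds carbon dioxide exchange, and it is the classical surface marker of aerocytes. Its probe sets had 49.5 and 40.2 units in old cells, against 4.52 and 2.35 units in young cells. All 4 values were below the floor, so no order was read from them. A floor at the 25th percentile gave a lower bound of 2.44-fold toward the old side. Car4 is therefore not a measurable marker on either array at the floor used.

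Of the other 15 carbonic anhydrase genes, all named on the array, 8 were below the floor at both ages. Car3, the isoform of muscle and fat, had 1792 units in old cells, against 18.2 units in young cells, and was at least 24.3-fold higher in old cells. Its probe sets ranged from 1.43 to 4.60 in log2 ratio. Car7, read from a probe set that can match several transcripts, was 2.09-fold higher in old cells, and under 2-fold on the values as deposited (0.93), with equal trimmed means (0.94), quantile normalization (0.80) and the offset (0.80). Without shared-sequence probe sets, and with the floor at the 75th percentile, Car7 was below the floor at both ages. Car8 and Car2 had log2 ratios of 0.78 and 0.63.

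Emp2 encodes a tetraspan protein of the PMP22 family that is found in aerocytes and in alveolar type 1 epithelium. The probe set read for the gene (1433670_at) had 532 units in old cells, against 18.7 units in young cells, below the floor. It was at least 7.22-fold higher in old cells (log2 ratio 2.85). The other probe sets had 66.8 and 48.4 units in old cells, against 32.4 and 3.03 units in young cells, all below the floor, so that the call rests on 1 of 3 probe sets. The Emp2 log2 ratio was 0.12 with the floor at the 75th percentile. Alveolar type 1 markers did not move together, with 2 of 6 measured genes higher in old cells and 3 in young cells. The shares of all measured genes were 16.0% and 11.3%. The summed signal of the type 1 markers was 10470 units in old cells, against 19535 units in young cells. Aqp5, Rtkn2, Akap5 and Cldn18 were below the floor at both ages. Most of the young sum was Cav1 (5900 units in old cells, against 11355 in young cells), also a general endothelial gene, and Pdpn (1880 units in old cells, against 6918 in young cells), also a lymphatic one. Ager had 117 units in old cells, against 243 in young cells, and Igfbp2 had 2108 units in old cells, against 11.6 in young cells. Clic5 was at least 11.5-fold higher in young cells and Hopx 3.95-fold higher in old cells. The Hopx probe sets ranged from 0.05 to 1.98 in log2 ratio, and the young value read (74.7 units) was just above the floor. With the floor at the 75th percentile neither Clic5 nor Hopx kept its call. The part of those cells in the Emp2 value was not tested.

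Of 5 measured relatives of Emp2, 3 were higher in old cells and 1 in young cells (median 1.28). The shares of all measured genes were 16.0% and 11.3%. The claudin-like gene Tmem47 was 20.4-fold and Emp3, known from leukocytes, at least 17.7-fold higher in old cells. Emp3 passed the floor in old cells only and could differ in that direction alone. Perp, a junctional gene of epithelia, was 2.42-fold higher in old cells. Emp1 had 448 units in old cells, against 1576 units in young cells, and was 3.52-fold higher in young cells. The family was thus split, with Emp1 and Emp2 on opposite sides.

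Tmem100 encodes a small transmembrane protein of endothelium that is induced by BMP9 and BMP10 through the receptor ALK1. The probe set read for the gene (1449533_at) had 3.05 units in old cells, against 80.3 units in young cells, just above the floor. The other had 1.97 units in old cells, against 32.5 units in young cells, below it. The lower bound was 1.09-fold toward the young side, under the 2-fold rule. With the floor at the 25th percentile the log2 ratio was -1.98, and with the offset it was -1.55.

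Other genes of the BMP9 and ALK1 pathway gave more signal, with 15 of 18 above the floor in old cells and 14 in young cells. Of these 15, 7 were higher in old cells and 1 in young cells (median 0.63), against 16.0% and 11.3% of all measured genes. The inhibitory Smad genes Smad6 and Smad7 were 35.2-fold and 16.6-fold higher in old cells, and the inhibitor-of-differentiation genes Id3 and Id2 were 10.4-fold and 4.78-fold higher. The Smad7 probe sets ranged from 2.34 to 4.05 in log2 ratio. Acvrl1, the ALK1 gene, was named after its values were seen. It was not called at 2-fold (0.19), and its probe sets disagreed, ranging from -1.80 to 0.19. Smad5, chosen after its values were seen because it was the single gene on the young side, was 2.43-fold higher in young cells. Tmem100 itself was too close to the floor to be placed with either.

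Hpgd encodes the dehydrogenase that inactivates prostaglandin E2, and the lung is a main site of that clearance. Both probe sets had the same order. One (1419905_s_at) had 11154 units in old cells, against 26.0 units in young cells, and the other (1419906_at) had 826 units in old cells, against 5.09 units in young cells. Both young values were below the floor. The lower bounds were 151-fold and 11.2-fold, with log2 ratios of 7.24 and 3.49. The larger came from a probe set that can match several transcripts, and the mean over both was 5.36. Moving the floor to the 25th and 75th percentiles gave 8.74 and 4.51. Hpgd is not confined to lung capillaries and is also known from epithelium and macrophages. Of 5 measured alveolar type 2 markers, 2 were higher in old cells, with a summed signal of 2973 units in old cells, against 2213 units in young cells. Most of both sums was Abca3 (1943 units in old cells, against 1918 in young cells), and Sftpc was below the floor at both ages. Of the liver macrophage list 8 of 8 genes were higher in old cells, Marco by at least 14.5-fold, against 16.0% of all measured genes. Of the 8, 2 were above the floor in young cells. Among 5 measured alveolar macrophage markers 2 were higher in old cells, Marco and Mrc1 (at least 374-fold). Pparg of that list was 11.0-fold higher in young cells, and Fabp4 had a log2 ratio of -0.20. The part of other cell types in the Hpgd value was not tested.

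Of 11 measured genes of prostaglandin synthesis and clearance, 5 were higher in old cells and 2 in young cells (median 0.98). The shares of all measured genes were 16.0% and 11.3%. The cyclooxygenase gene Ptgs2 was at least 24.4-fold higher in old cells, and the prostacyclin synthase gene Ptgis at least 13.2-fold. The Ptgs2 probe sets ranged from 1.42 to 4.61 in log2 ratio. The transporter genes Abcc4, an exporter, and Slco2a1, which brings prostaglandins into the cell for Hpgd, were 17.5-fold and 5.25-fold higher in old cells. The genes on the young side, named after their values were seen, were the prostaglandin D synthase genes Hpgds (at least 4.09-fold) and Ptgds (2.63-fold). The Ptgis bound was 0.99 in log2 ratio with the floor at the 75th percentile. Ptgs2, Ptgis and Tbxas1 passed the floor in old cells only, and Hpgds in young cells only. Each of these genes could differ in that direction alone. Tbxas1 was named after its values were seen. Of 9 prostanoid receptor genes 6 were below the floor at both ages. Tbxa2r, the thromboxane receptor gene, was 5.57-fold higher in old cells, Ptger4 had a log2 ratio of -0.97, and Ptgir a lower bound of 0.06. Ptger4 passed 2-fold toward the young side on the values as deposited (-1.11), with equal trimmed means (-1.10) and with quantile normalization (-1.11), and Ptgir passed 2-fold toward the old side with the floor at the 25th percentile (1.92) and the offset (1.21).

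Scn7a encodes Nax, a sodium channel relative that senses sodium concentration rather than voltage. The probe set read for the gene (1436044_at) had 77.0 units in old cells, just above the floor, against 24.6 units in young cells. The other probe sets had 33.4 and 2.03 units in old cells, against 8.47 and 2.95 units in young cells, all below the floor. The lower bound was 1.04-fold toward the old side, and the log2 ratio was 1.64 with the floor at the 25th percentile. Scn7a is also known from Schwann cells, whose markers were below the floor at both ages for 4 of 5 genes, Sox10 and S100b among them, while Mbp was at least 3.99-fold higher in old cells. Mbp was read from a probe set that can match several transcripts, and it was below the floor without such probe sets and with the floor at the 75th percentile. The part of those cells in the Scn7a value was not tested.

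Of 10 other sodium channel subunit genes named on the array, 7 were below the floor at both ages and 3 were higher in young cells. Over all measured genes 11.3% were higher in young cells. Scn3a and Scn11a passed the floor in young cells only and could differ in that direction alone, while Scn3b was above it at both ages. Scn3a had 16.9 units in old cells, against 2142 units in young cells, and was at least 29.1-fold higher in young cells. The auxiliary subunit gene Scn3b was 26.7-fold higher in young cells and Scn11a at least 3.67-fold. The Scn3b probe sets ranged from -4.74 to -1.60 in log2 ratio. Scn11a did not pass the higher floor at either age.

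Fibin encodes a secreted protein named for its part in fin bud formation in zebrafish and is an aerocyte marker in the mouse. Its single probe set (1419376_at) had 41.1 units in old cells, against 23.3 units in young cells, both below the floor. With the floor at the 25th percentile its log2 ratio was 0.82, under 2-fold.

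**Figure D3:**
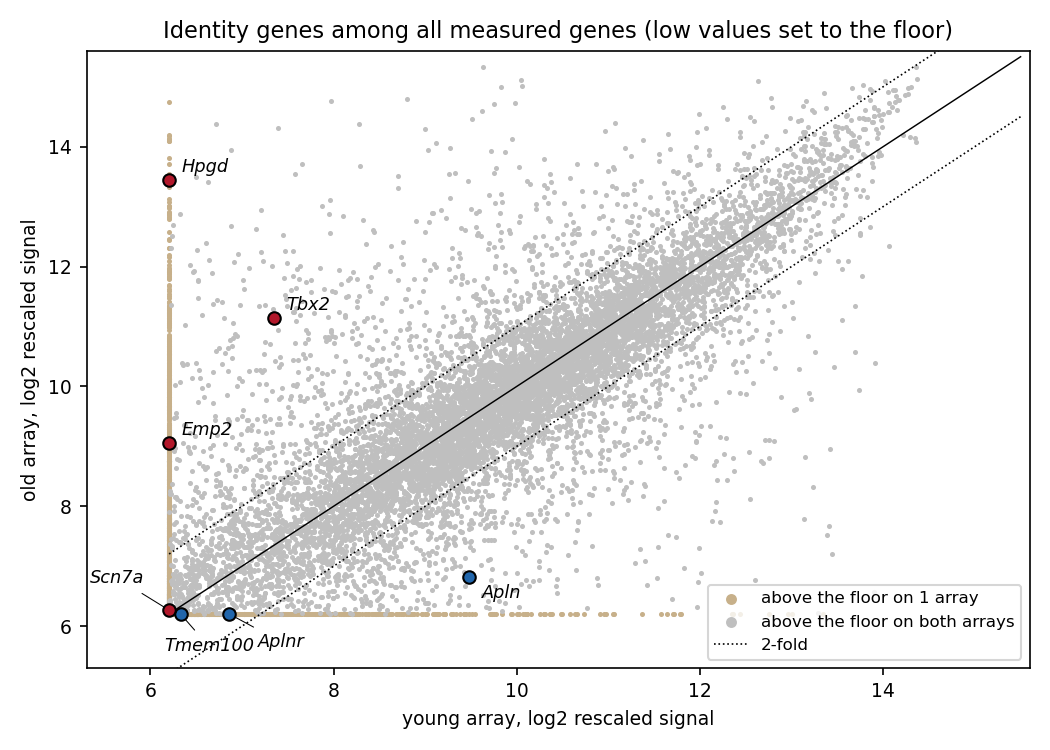
Log2 rescaled signal in old cells (vertical axis) against young cells (horizontal axis) for the 12105 genes that passed the floor at 1 age or both, with low values set to the floor, the line of equality and dotted lines at 2-fold. Grey points were above the floor at both ages, brown points at 1, and the 7 measured identity genes are drawn in red (old side) and blue (young side). Hpgd and Emp2 lie on the left edge, where young cells are at the floor, Tbx2 and Apln lie outside the 2-fold lines on opposite sides, and Scn7a, Tmem100 and Aplnr crowd the corner at the floor.

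Promoter sequence was matched by symbol for 6 of the 10 genes, Apln, Car4, Emp2, Fibin, Hpgd and Scn7a, from RefSeq on GRCm38.p6. The 250 bases before the start are shown for Hpgd, Emp2 and Apln, the matched genes with a 2-fold call, so that these old-side genes can be read beside the young-side gene. Capitals mark matches on either strand to the GC box GGGCGG or to the BMP-responsive element GGCGCC, which can overlap in their shared letters.
Hpgd, chr8:56294302-56294551, plus strand: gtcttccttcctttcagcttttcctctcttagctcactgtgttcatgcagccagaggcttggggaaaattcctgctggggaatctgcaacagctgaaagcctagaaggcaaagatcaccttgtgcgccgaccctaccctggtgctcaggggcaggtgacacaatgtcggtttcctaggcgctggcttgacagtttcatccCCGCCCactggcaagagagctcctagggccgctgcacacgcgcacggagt
Emp2, chr16:10313969-10314218, minus strand: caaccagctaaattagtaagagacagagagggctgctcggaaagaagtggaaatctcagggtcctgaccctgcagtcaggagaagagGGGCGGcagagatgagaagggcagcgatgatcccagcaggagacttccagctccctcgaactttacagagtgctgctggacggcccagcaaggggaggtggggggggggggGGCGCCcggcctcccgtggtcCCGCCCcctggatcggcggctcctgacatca
Apln, chrX:48034854-48035103, minus strand: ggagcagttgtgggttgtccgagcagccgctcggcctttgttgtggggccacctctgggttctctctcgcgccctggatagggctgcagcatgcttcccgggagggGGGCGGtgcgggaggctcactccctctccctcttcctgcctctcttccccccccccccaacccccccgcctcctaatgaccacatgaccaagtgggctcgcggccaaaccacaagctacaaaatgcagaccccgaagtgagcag
Of the 6 matched windows 4 held the GC box, once in Hpgd, Apln and Scn7a and 2 times in Emp2, and Car4 and Fibin held none. It was present in 32.7% of 32851 promoter windows of this length. The element GGCGCC was found in Emp2 only among the 6 windows, and in 9.59% of all. The hypoxia response core ACGTG (16.6% of all windows), the AP-1 site TGANTCA (6.75%), the CCAAT box CCAAT (33.8%) and the TATA box TATAAA (12.4%) had no match in any of the 6 windows. The windows of Apln, Emp2 and Hpgd had 65.2%, 62.8% and 56.8% G and C, against a median of 52.4% over all windows. These letters do not separate the old-side genes from the young-side gene, since the GC box is in all of the shown windows.

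Lists of related vascular genes give the setting of these values, and their shared members count in each. Over all measured genes the median was 0.03, with 16.0% higher in old cells and 11.3% in young cells. Other aerocyte genes were split, with 2 of 7 measured higher in old cells and 2 in young cells (median 0.70). The growth factor gene Kitl (7.27-fold) and the VEGF receptor gene Kdr (2.21-fold) were higher in old cells. Ednrb (8.83-fold), the endothelin receptor gene that marks aerocytes, and the sulfotransferase gene Chst1 (20.0-fold) were higher in young cells. After loess (0.73) or quantile normalization (0.62) Kdr did not reach 2-fold.

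General capillary genes were on the old side for 6 of 9 measured and on the young side for 0 (median 3.08). They included the receptor gene Kit (at least 103-fold), the lipoprotein lipase anchor Gpihbp1 (35.7-fold), the lipase gene Lpl (14.8-fold) and the chemokine gene Cxcl12 (13.5-fold). In log2 ratio the probe sets ranged from 3.19 to 6.69 for Kit, 2.64 to 3.88 for Lpl and 2.17 to 3.75 for Cxcl12. Cd93 and Sema3c, also called on the old side, were named after their values were seen. Their probe sets did not all pass 2-fold, with ranges of 0.74 to 3.56 and 0.47 to 2.56. Kit and Sema3c passed the floor in old cells only and could differ in that direction alone. The list median was 1.70 with the floor at the 75th percentile and 2.26 with the mean over probe sets. Aplnr, known from general capillary cells, was not called in either direction. Of the 15 pan-endothelial genes 4 were higher in old cells and 1 in young cells (median 0.56), led by Robo4 (9.12-fold), Tek (5.91-fold), Esam (2.68-fold) and Eng (2.54-fold) on the old side. Neither loess (0.92) nor quantile normalization (0.80) left Eng at 2-fold. Whether the lists differ from one another was not tested.

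Transcription factors of lung endothelium were within 2-fold for 8 of 14 measured, with 5 higher in old cells and 1 in young cells (median 0.34). The SoxF gene Sox17 was 67.5-fold higher in old cells, read from a probe set that can match several transcripts and whose young value lay just above the floor. The shear-responsive gene Klf2 (4.84-fold) and the hypoxia-inducible factor gene Epas1 (3.04-fold) were higher in old cells. Meox1, a homeobox gene, had 19.8 units in old cells, against 3191 units in young cells, and was at least 43.3-fold higher in young cells. The ratio of Tbx2 therefore stood beside large differences in both directions among endothelial regulators.

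**Figure D4:**
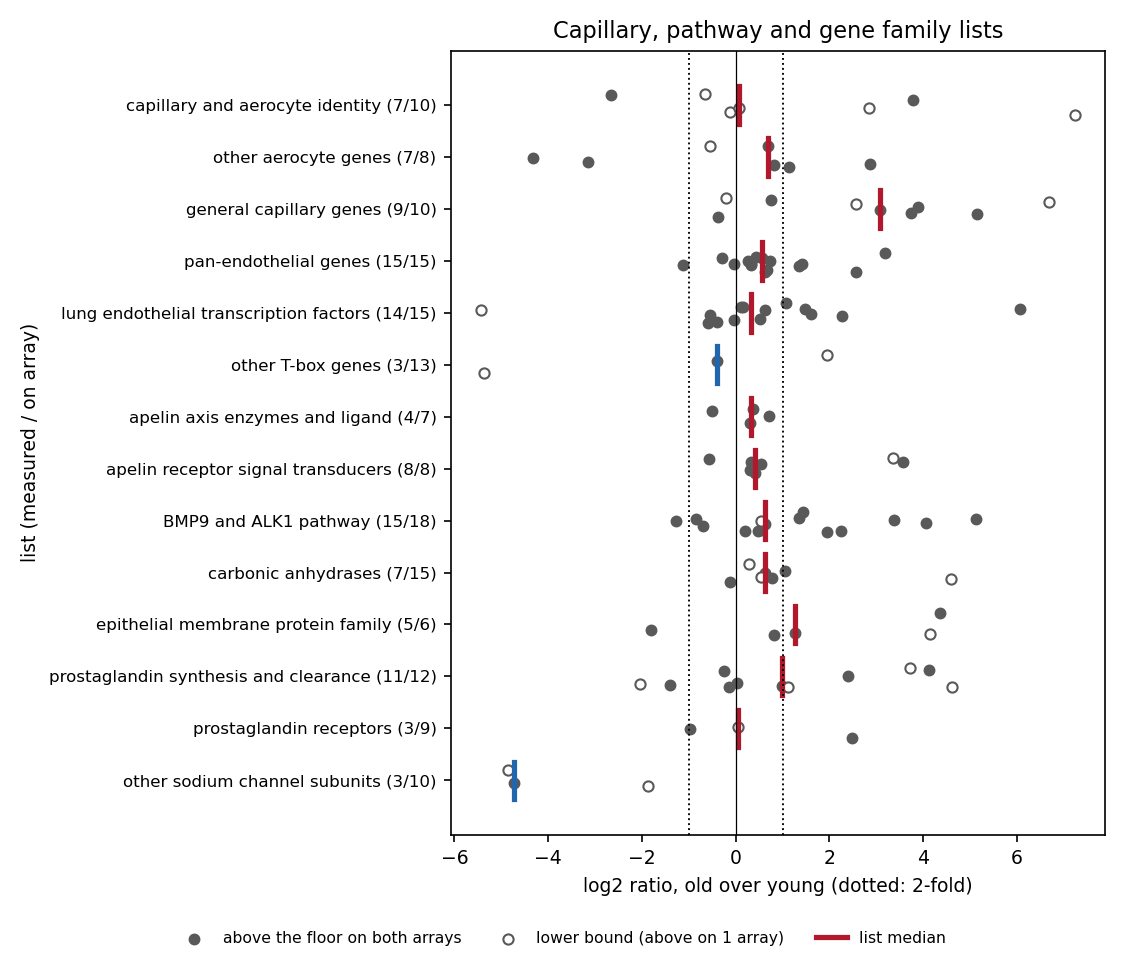
Log2 ratio of old over young for each measured gene of the identity genes and of 13 related lists, with filled points above the floor at both ages, open points for lower bounds, a thick bar at the list median (red above 0, blue below) and dotted lines at 2-fold. Numbers give measured genes over genes on the array. The general capillary median of 3.08 lies right of the 2-fold line, the sodium channel median of -4.74 left of it, and the identity genes spread from -2.66 to 7.24 around a median of 0.06.

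Markers of other cells differed between the arrays. A gene that passed the floor at 1 age only could be called in that direction alone. Over all measured genes 16.0% were higher in old cells and 11.3% in young cells. Leukocyte, mural, mesothelial and fibroblast genes lay mostly on the old side, as did Hpgd, Tbx2 and Emp2. Pan-leukocyte genes were higher in old cells for 8 of 10, with a summed signal of 23864 units in old cells, against 7327 units in young cells. Of the 10, 4 were above the floor in young cells. Most of the young sum was Arhgdib (5496 units) and Lcp1 (1391 units), neither called at 2-fold. Pericyte and smooth muscle genes were higher in old cells for 7 of 9, with summed signals of 24474 units in old cells and 479 units in young cells. Of the 9, 2 were above the floor in young cells. Mesothelial genes were higher in old cells for 6 of 6, with 12305 units in old cells and 139 units in young cells. Of the 6, 1 was above the floor in young cells. Among fibroblast genes the lower bound toward the old side was 118-fold for Col3a1 and 110-fold for Col1a2.

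Liver genes lay on the old side as well, although the tissue of both samples is labelled mature lung. Liver sinusoidal endothelial genes were higher in old cells for 10 of 12, with 218876 units in old cells and 39256 units in young cells. Of the 12, 7 were above the floor in young cells. Most of the young sum was Lyve1 (16120 units), Stab1 (9881 units) and Ctsl (9671 units), of which only Ctsl was called, toward the old side. Hepatocyte genes were higher in old cells for 9 of 9, with 17750 units in old cells and 752 units in young cells. Of the 9, 2 were above the floor in young cells. Liver macrophage genes were higher in old cells for 8 of 8, with 25593 units in old cells and 4042 units in young cells. Of the 8, 2 were above the floor in young cells, and most of the young sum was Slc40a1 (3739 units). In the sinusoidal list the lower bound toward the old side was 254-fold for Bmp2, 237-fold for Oit3 and 236-fold for Dnase1l3. Of the aerocyte markers, Car4 and Fibin were below the floor in old cells and in young cells. Apln and Ednrb were above it at both ages, and 7 of the 8 other aerocyte genes on the array were measured.

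On the young side stood lymphatic endothelial genes, of which 6 of 8 were higher in young cells and 0 in old cells, with summed signals of 35354 units in old cells and 69275 units in young cells. Most of the old sum was Flt4 (18035 units) and Lyve1 (14902 units), neither called at 2-fold, and Lyve1 counts in the sinusoidal list too. Prox1 (60.6 units) and Nts (27.2 units) were below the floor in old cells. The lower bound toward the young side was 141-fold for Nts and 93.4-fold for Prox1. Alveolar macrophages also express Car4 in the mouse, and 2 of 5 measured markers were higher in old cells and 1, Pparg (11.0-fold), in young cells. Their summed signal was 47075 units in old cells, against 22189 units in young cells, and 3 markers, Siglecf among them, were below the floor at both ages. Most of that sum was Mrc1 (27542 units in old cells, against 42.0 in young cells) and Fabp4 (18209 units in old cells, against 20863 in young cells), both also known from endothelium. Chil3 had 85.5 units in old cells, against 10.3 units in young cells. The part of any of these cells in the identity gene values was not tested.

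**Figure D5:**
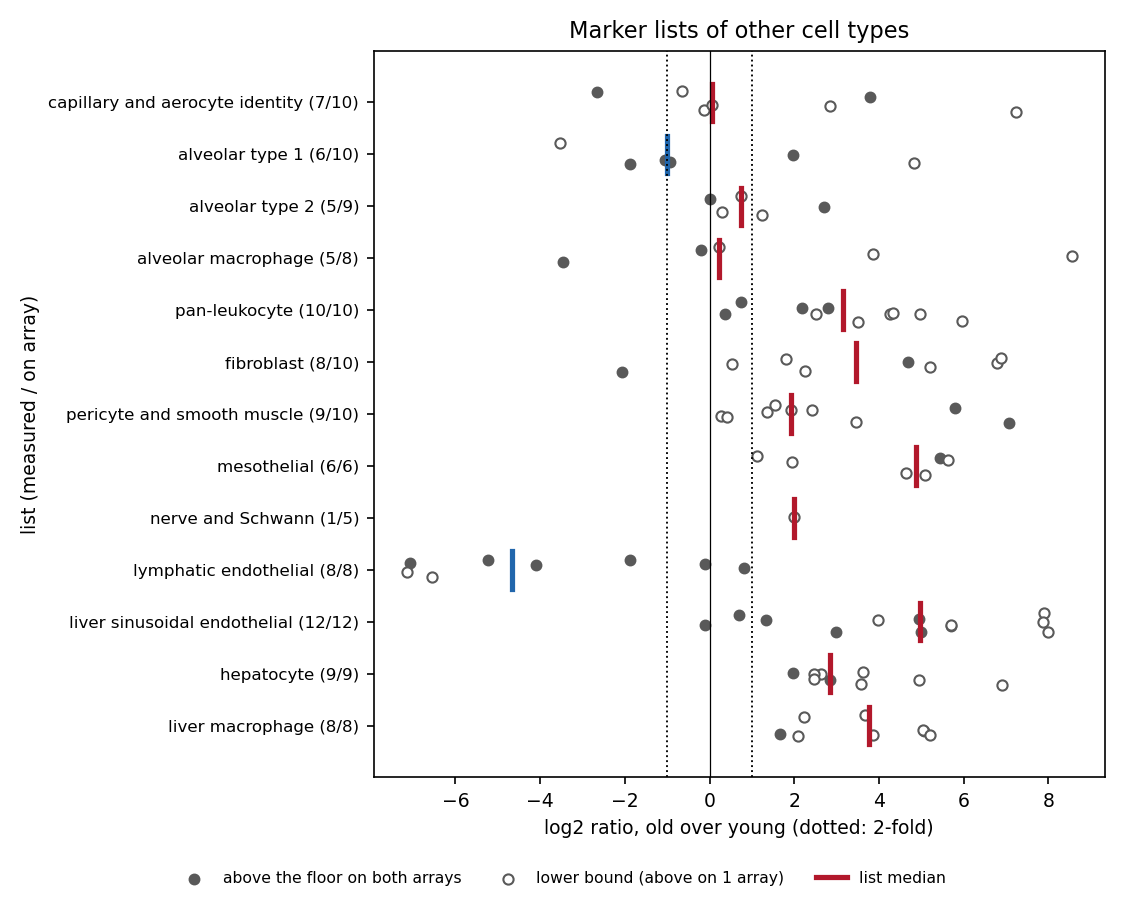
Log2 ratio of old over young for each measured marker of 12 other cell types, with the identity genes on the first line for comparison, filled points above the floor at both ages, open points for lower bounds, a thick bar at the median (red above 0, blue below) and dotted lines at 2-fold. Mesothelial, liver, fibroblast, mural and leukocyte medians and the single nerve marker lie right of the 2-fold line, the lymphatic median of -4.67 lies left of it, and the identity genes are spread over both sides.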

How the data were processed

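Each array gave 1 linear-scale intensity for every probe set, which the authors deposited after processing with GCOS 1.4 and MAS5 per the submitters' processing notes. With 2% of values trimmed from either end, both arrays had a mean intensity of 500. Detection calls and probe-level values were not used here. Of 45101 probe sets, 64 controls were left out. Names came from the platform annotation of 2016, in which 34958 probe sets had 1 symbol, 932 several and 9211 none.

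The median log2 ratio before rescaling was -0.13, and the scale factors were 1.05 (old) and 0.956 (young). The floor was the 50th percentile over non-control probe sets, taken from whichever array had the higher. Probe sets of 1 gene differed in log2 ratio with an SD of 0.42 (4514 genes), which describes probes and not mice. The number of arrays limits the precision. The identity genes, the 25 lists (263 genes, 245 named on the array) and the alternatives were chosen with earlier results of these data known. Named were all identity genes and, of each list, some or all of the up to 4 measured genes with the largest absolute log2 ratio. Genes named as below the floor were chosen after their values were seen, as were others said to be so. Ager, Fabp4 and genes named only for their share of a summed signal were chosen in the same way. The procedure was tested on simulated data. Python 3.11.15, numpy 2.4.6, pandas 2.3.3, statsmodels 0.14.6 and matplotlib 3.10.9 were used.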

Additional observations from a re-analysis of the deposited data

How the results depend on the processing

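There were 9 alternatives. The scalings were quantile normalization, loess (span 0.4), equal trimmed means and no rescaling (the deposited values). Others were floors at the 25th and 75th percentiles, averaging a gene over its probe sets, dropping the shared-sequence kinds _s_at and _x_at, and an offset of 0.5 of the floor. The scalings, the mean over probe sets and leaving out shared-sequence probe sets kept the counts of identity genes on each side, and Tbx2 and Apln, the genes above the floor at both ages, kept their sign. The sign of the other 5 measured genes was fixed by the floor. With the floor at the 25th percentile 6 identity genes were higher in old cells, 3 in young cells, 1 in neither direction and 0 below the floor, and the median log2 ratio was 1.20. With the floor at the 75th percentile 2 were higher in old cells, 0 in young cells and 6 below the floor, and the median was 1.17. With the offset 3 were higher in young cells and 1 was called in neither direction, and the median was 0.89. A lower or higher floor changes which genes are measured. Of 60 values of single identity genes under alternatives, 15 moved by more than the spread between probe sets. Of the list medians, 46 values did so and 177 did not, and the other T-box genes changed sign with quantile normalization (0.19), the floor at the 25th percentile (0.70) and the mean over probe sets (0.13). The median over all measured genes was 0.03, and -0.09 on the values as deposited. No paired analysis was possible because each age has 1 array. Low signal limits Car4, Tbx3, Fibin, Aplnr, Tmem100 and Scn7a, and the spread between mice is unknown for all.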
